A study of Mus musculus with 9 samples.

Results

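The platelet-derived growth factor (PDGF) family was followed in sorted mouse skin cells as 7 genes, taken by their names in the deposited gene table: the ligand genes Pdgfa, Pdgfb, Pdgfc and Pdgfd, the receptor genes Pdgfra and Pdgfrb, and the receptor-like gene Pdgfrl. All 7 were found among 23361 genes, and all 7 passed the filter on low counts that left 15078 genes for testing. The cells had been sorted from skin, and their label was melanocyte stem cells, the follicle cells that renew the pigment cells. All mice carried the genotype labelled TBPT and were 10 weeks old, and 3 libraries each were labelled UVB, Active and Quiescent. UVB is the medium-wave ultraviolet band. Every sample carried the same treatment label, which named depilation and UVB as alternatives, so the labels did not say which of the Active and Quiescent groups had been depilated. The sources used here do not say what TBPT stands for, which promoter drives any transgene in it, or how the cells were marked for the sort. The labels did not say whether replicate libraries came from separate animals, so p-values measure only the spread between these libraries.

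PDGF chains are secreted as dimers that bring receptor tyrosine kinases together on the receiving cell. PDGF-A and PDGF-C act through PDGF receptor alpha, PDGF-D acts mainly through receptor beta, and PDGF-B binds both. In skin, receptor alpha is a standard marker of dermal fibroblasts, receptor beta is found on pericytes and fibroblasts, and PDGF-A made by epithelial cells of the hair follicle is known to signal to the dermis.

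The libraries held 21045070 to 35131778 fragments assigned to genes. Levels of 1 gene across libraries are given as CPM, fragments per 1e+06 after TMM scaling. Levels of different PDGF genes are compared only as the authors' FPKM, which is per kilobase of transcript. Marker sums, and PDGF genes set against them, are in CPM, which is not per length. The 9 pigment cell markers, Kit among them, summed to 846 to 1037 CPM in UVB, 7761 to 12619 CPM in Active and 74.4 to 121 CPM in Quiescent libraries. The 11 fibroblast markers summed to 22900 to 35438 CPM in UVB, 4995 to 6296 CPM in Active and 339977 to 461388 CPM in Quiescent libraries. Against the label of melanocyte stem cells, the UVB and Quiescent libraries thus held far more fibroblast marker RNA than pigment cell marker RNA. The fibroblast sum was mostly collagen genes, and sums of marker RNA do not measure numbers of cells. Xist, the RNA of the inactive X chromosome, had 23353 to 30356 fragments in UVB, 5 to 12 in Active and 4 to 12 in Quiescent libraries. The 4 Y-linked genes counted had 0 to 2 fragments in UVB, 4106 to 5253 in Active and 4155 to 5591 in Quiescent libraries. Sex-linked RNA therefore separated UVB from both other groups, and in each UVB comparison the irradiation and the sex of the mice cannot be told apart.

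In the GENCODE M21 annotation of GRCm38 (mm10), Pdgfb, Pdgfc, Pdgfd and Pdgfrl each lie on a chromosome of their own. Pdgfa lies on the reverse strand at chr5:138976014-138997370 and Pdgfra on the forward strand of the same chromosome at chr5:75152292-75198215. Pdgfb is on the reverse strand at chr15:79995874-80014977. Pdgfc is on the forward strand at chr3:81036416-81214040, Pdgfd at chr9:6168584-6378850 and Pdgfrl at chr8:40926212-40990785, both also forward. Genes annotated on the opposite strand overlap Pdgfa, Pdgfb, Pdgfc, Pdgfd and Pdgfra, and the sources used here do not give the strand setting of the counting. Of these overlapping genes, Ddi1 at Pdgfd had a row of its own, with 2 fragments in UVB replicate 3 and 0 in the other 8 libraries.

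RefSeq windows of 250 bases before an annotated start, on GRCm38.p6, were at hand for 4 members. Windows of 3 genes that did not all move in the same direction are shown, and no link between sequence and direction was tested. Pdgfa was high in UVB and Active libraries, whereas Pdgfc and Pdgfra were lowest in Active libraries. Capitals mark each CG pair, the site of DNA methylation in mammals, and only bases outside the GENCODE exons of the gene are printed, 5′ to 3′. The Pdgfa stretch is chr5:138995038-138995194 on the reverse strand, the Pdgfc window is chr3:81036166-81036415 on the forward strand, and the Pdgfra window is chr5:75152001-75152250 on the forward strand.
Pdgfa: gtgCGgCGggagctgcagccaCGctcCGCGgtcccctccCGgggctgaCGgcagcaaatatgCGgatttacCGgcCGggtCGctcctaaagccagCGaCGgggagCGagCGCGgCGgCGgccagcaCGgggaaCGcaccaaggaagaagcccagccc
Pdgfc: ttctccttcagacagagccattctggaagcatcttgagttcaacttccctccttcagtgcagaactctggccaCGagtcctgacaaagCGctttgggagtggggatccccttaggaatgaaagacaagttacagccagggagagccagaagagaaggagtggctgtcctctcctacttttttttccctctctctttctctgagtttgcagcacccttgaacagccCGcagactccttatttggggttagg
Pdgfra: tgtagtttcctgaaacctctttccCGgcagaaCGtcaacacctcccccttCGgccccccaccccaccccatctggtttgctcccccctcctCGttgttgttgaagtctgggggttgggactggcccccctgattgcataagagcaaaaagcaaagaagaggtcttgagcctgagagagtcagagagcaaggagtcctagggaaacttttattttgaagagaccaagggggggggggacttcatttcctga

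The whole Pdgfa window, of which the first 157 bases are shown, held 28 CG pairs and 72.4% G and C, and a second Pdgfa window at another RefSeq start, not shown, held 19 CG pairs, 66.4% G and C and 1 GC box. The Pdgfc window held 3 CG pairs and 50.8% G and C, and the Pdgfra window 4 CG pairs and 54.4% G and C. Over 32851 mouse windows of the same length the medians were 6 CG pairs and 52.4% G and C. At least as many CG pairs as Pdgfa were held by 7.61% of windows, and at most as many as Pdgfra by 44.4%. The GC box letters GGGCGG, searched on both strands, occurred 2 times in the whole Pdgfa window shown in part, 0 times in the Pdgfc, Pdgfd and Pdgfra windows, and at least once in 32.7% of all windows. The TATA box letters TATAAA, also searched on both strands, were in no Pdgfa, Pdgfc or Pdgfra window, 1 time in the Pdgfd window, which is not shown, and in 12.4% of all windows. The Pdgfd window held 3 CG pairs and 53.6% G and C. These matches describe letters, not binding.

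**Figure D1:**
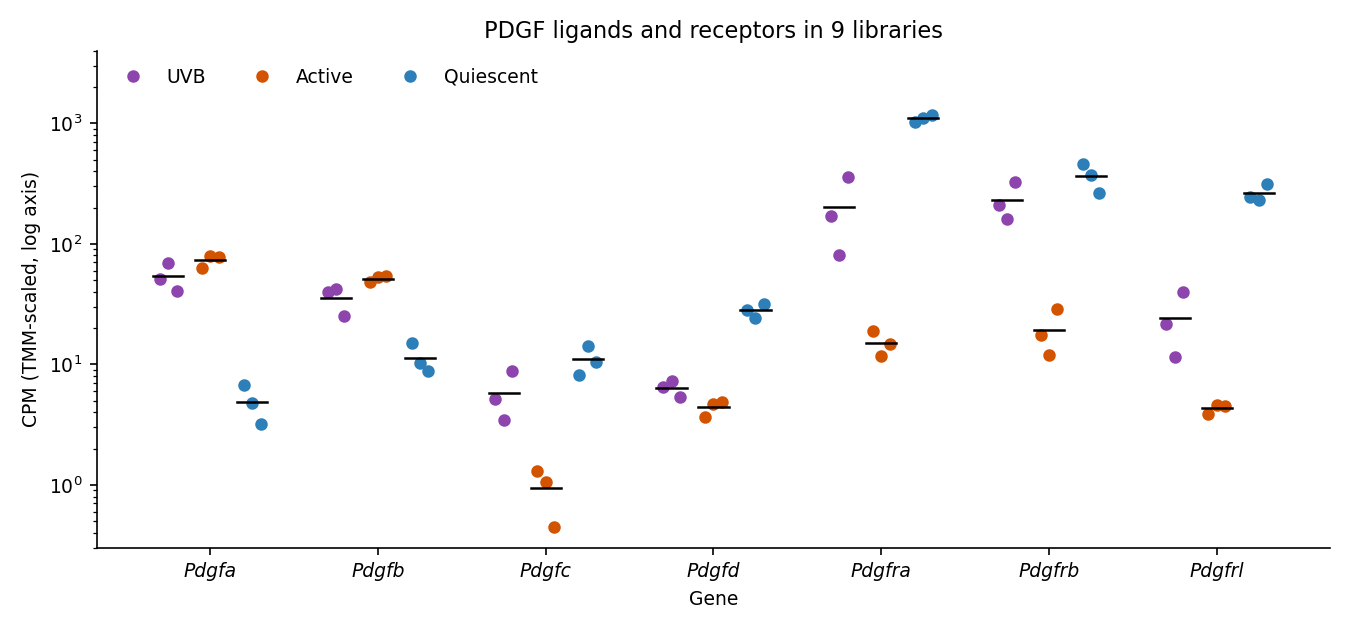
CPM (TMM-scaled, log axis) of each PDGF gene in the 9 libraries, with 1 point per library and a line at each group mean; UVB, Active and Quiescent run from left to right within each gene. Pdgfa and Pdgfb were lowest in Quiescent libraries, the other 5 genes were lowest in Active libraries, and UVB replicates spread most for Pdgfra, Pdgfrl and Pdgfc.

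Active libraries held more RNA of the ligands Pdgfa and Pdgfb and less of the other ligands, both receptors and Pdgfrl than Quiescent libraries. All 7 genes passed the test in Active against Quiescent, 2 higher and 5 lower, and none overlapped between the groups. The background in this comparison was high: 58.3% of all genes tested were called (29.1% higher and 29.2% lower), and 66.2% did not overlap. The median log2 fold change was -3.53 for the members and 0.007 over all genes tested. Whether less RNA of a gene came from fewer cells of a type or from less RNA per cell cannot be told apart in these bulk libraries.

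Pdgfa, which encodes the chain that binds receptor alpha alone, had 51.3, 69.4 and 40.8 CPM in UVB, 63.0, 79.2 and 77.7 CPM in Active and 6.76, 4.77 and 3.19 CPM in Quiescent libraries. Both the UVB and the Active values lay above every Quiescent value and overlapped each other. Pdgfa was 14.8-fold higher in Active than in Quiescent libraries (log2 fold change 3.89 ± 0.30 SE, n = 3 each, edgeR quasi-likelihood adjusted p = 1.5e-05). It was 10.9-fold higher in UVB than in Quiescent libraries (3.44 ± 0.30, adjusted p = 5.1e-05). Between UVB and Active libraries the log2 difference was -0.45, with a 95% interval from -1.04 to 0.15 (adjusted p = 0.249).

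Pdgfb encodes the chain that binds both receptors and that endothelial cells use to recruit pericytes. It had 39.7, 42.0 and 25.2 CPM in UVB, 48.2, 52.6 and 53.8 CPM in Active and 15.1, 10.3 and 8.80 CPM in Quiescent libraries. The 3 groups did not overlap. Pdgfb was 4.51-fold higher in Active than in Quiescent libraries (2.17 ± 0.25, adjusted p = 1.0e-04) and 3.12-fold higher in UVB than in Quiescent libraries (1.64 ± 0.24, adjusted p = 7.0e-04). All UVB values were below all Active values, but the log2 difference of -0.53 did not pass the test over all genes (adjusted p = 0.131). The 10 endothelial markers, a cell type that makes PDGF-B, summed to 453 to 483 CPM in UVB, 221 to 304 CPM in Active and 469 to 638 CPM in Quiescent libraries. Of these markers 1 was higher and 9 were lower in Active, and 1 was higher and 5 were lower in UVB, each against Quiescent. Over all genes tested, 29.2% were lower in Active and 23.2% in UVB. The marker higher in both, Eng, encodes a co-receptor of endothelial cells. It averaged 261 ± 51.4 CPM in UVB, 222 ± 48.4 CPM in Active and 126 ± 15.8 CPM in Quiescent libraries. Eng made up most of the UVB and Active sums but not of the Quiescent sum. The part of endothelial cells in the Pdgfb values was not tested.

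Pdgfc encodes a chain that is secreted in a latent form and, once cut, binds receptor alpha. It had 5.20, 3.42 and 8.78 CPM in UVB, 1.31, 1.05 and 0.450 CPM in Active and 8.21, 14.3 and 10.5 CPM in Quiescent libraries. Active values were the lowest, and UVB replicate 3 reached into the Quiescent range. Pdgfc was 11.6 times lower in Active than in Quiescent libraries (-3.53 ± 0.49, adjusted p = 3.1e-04) and 6.11-fold higher in UVB than in Active libraries (2.61 ± 0.47, adjusted p = 0.0068). For UVB against Quiescent the log2 difference was -0.92, with a 95% interval from -1.91 to 0.07 (adjusted p = 0.110). Without UVB replicate 3 it was -1.35 and passed (adjusted p = 0.037).

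Pdgfd encodes the second latent chain, which acts mainly on receptor beta. It had 6.49, 7.33 and 5.40 CPM in UVB, 3.68, 4.71 and 4.82 CPM in Active and 28.1, 24.0 and 31.8 CPM in Quiescent libraries. The 3 groups did not overlap, with Quiescent highest and Active lowest. Pdgfd was 6.35 times lower in Active (-2.67 ± 0.19, adjusted p = 1.2e-05) and 4.36 times lower in UVB (-2.13 ± 0.19, adjusted p = 5.7e-05), each against Quiescent. Its UVB values were above its Active values by 0.54 ± 0.19 on the log2 scale, which did not pass the test (adjusted p = 0.064).

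Pdgfra, the gene of receptor alpha, had 169, 80.3 and 361 CPM in UVB, 18.9, 11.6 and 14.8 CPM in Active and 1030, 1097 and 1170 CPM in Quiescent libraries. The groups were fully separated, and the UVB replicates spread widely while the Quiescent replicates were close together. Pdgfra was 72.5 times lower in Active than in Quiescent libraries (-6.18 ± 0.56, adjusted p = 3.1e-05), the largest change of the 7 genes in any comparison. It was 5.40 times lower in UVB than in Quiescent libraries (-2.43 ± 0.47, adjusted p = 0.0028). Against Active, UVB libraries held 13.4-fold more (3.75 ± 0.50, adjusted p = 0.0020). Leaving out UVB replicate 3 moved these UVB values to -3.14 and 3.04 on the log2 scale, and both still passed.

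Pdgfrb, the gene of receptor beta on chromosome 18, had 210.3, 161 and 325 CPM in UVB, 17.7, 12.0 and 28.6 CPM in Active and 457, 375 and 264 CPM in Quiescent libraries. UVB and Quiescent values overlapped, and every Active value was below both. Pdgfrb was 18.8 times lower in Active than in Quiescent libraries (-4.23 ± 0.41, adjusted p = 4.4e-05). It was 12.0-fold higher in UVB than in Active libraries (3.58 ± 0.40, adjusted p = 0.0010). For UVB against Quiescent the log2 difference was -0.65, with a 95% interval from -1.47 to 0.16 (adjusted p = 0.164), and its sign turned to 0.06 when libraries were scaled by size alone.

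Pdgfrl encodes a protein that resembles the outer part of a PDGF receptor and has no kinase. It had 21.5, 11.4 and 39.9 CPM in UVB, 3.90, 4.57 and 4.54 CPM in Active and 244, 233 and 316 CPM in Quiescent libraries. The 3 groups did not overlap. Pdgfrl was 61.0 times lower in Active than in Quiescent libraries (-5.93 ± 0.46, adjusted p = 1.5e-05) and 10.9 times lower in UVB than in Quiescent libraries (-3.44 ± 0.40, adjusted p = 2.1e-04). UVB libraries held 5.60-fold more than Active libraries (2.49 ± 0.40, adjusted p = 0.0042). Within the UVB group, replicate 3 was the highest and replicate 2 the lowest for Pdgfc, Pdgfra, Pdgfrb and Pdgfrl, and replicate 3 was the lowest for Pdgfa, Pdgfb and Pdgfd.

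In UVB against Quiescent, 2 members were higher, 3 were lower and 2 did not pass, and the 5 that passed did not overlap. Over all genes tested, 49% were called (25.8% higher and 23.2% lower) and 57.6% did not overlap. The median log2 fold change of the members was -0.92, against 0.021 over all genes. In UVB against Active, 4 members were higher (Pdgfc, Pdgfra, Pdgfrb and Pdgfrl), 0 were lower and 3 did not pass, and 6 members did not overlap. Here 24% of all genes were called (14.8% higher and 9.19% lower) and 46.7% did not overlap, and the median was 2.49 for the members and 0.014 over all genes. The all-gene count of 2226 higher and 1386 lower genes was 999 and 453 without Active replicate 2, 1215 and 591 without Active replicate 1, and 1395 and 543 without UVB replicate 1. The 3 comparisons share libraries, so their values are set side by side and not counted as separate evidence.

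**Figure D2:**
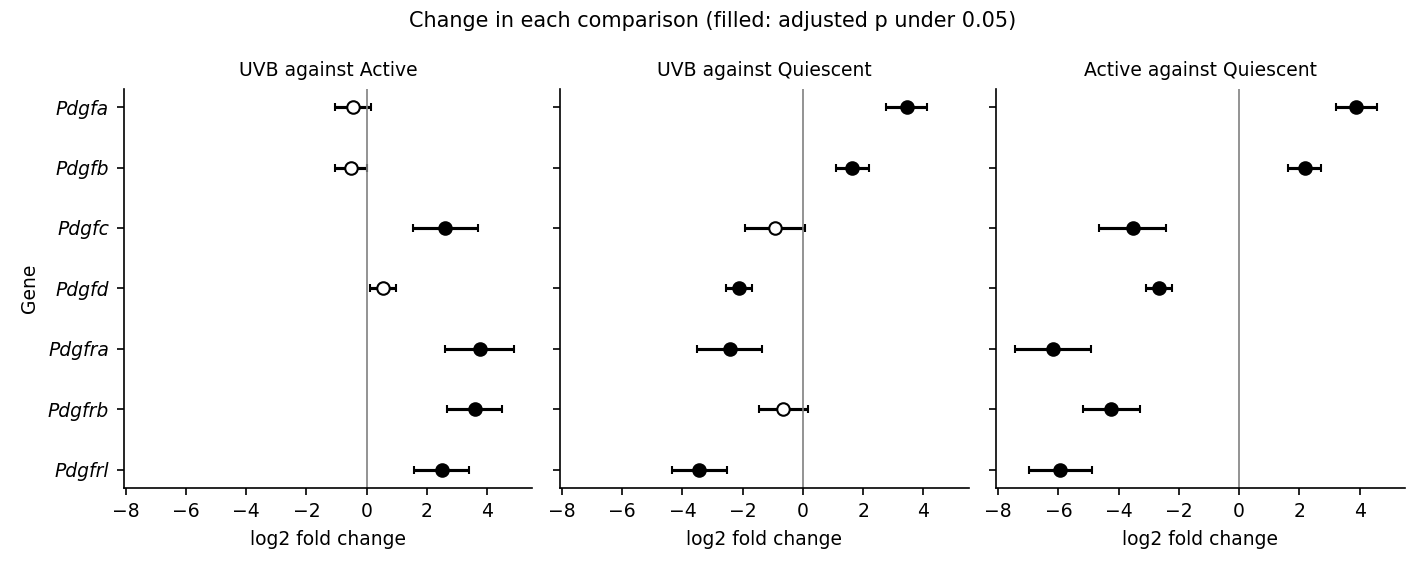
Log2 fold change of each PDGF gene in UVB against Active, UVB against Quiescent and Active against Quiescent, with 95% intervals from the edgeR fit; filled points had an adjusted p under 0.05. Pdgfa and Pdgfb were higher in UVB and Active than in Quiescent, with log2 fold changes from 1.64 to 3.89, and 4 genes were higher in UVB than in Active, from 2.49 to 3.75.

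Scaling moved the direction counts of all genes. With library size alone, the median of all genes moved to 0.757 in Active against Quiescent and 0.742 in UVB against Quiescent. The all-gene calls then ran 8651 higher and 2206 lower, against 4390 and 4396 with TMM, in Active against Quiescent, and 8746 and 1246, against 3895 and 3498, in UVB against Quiescent. The members' counts were 2 higher and 5 lower, and 2 higher and 3 lower, under both scalings, but the folds moved. With library size alone, in Active against Quiescent, Pdgfa was 24.6-fold and Pdgfb 7.53-fold higher, and Pdgfc was 6.88, Pdgfd 3.76, Pdgfra 43.0, Pdgfrb 11.4 and Pdgfrl 36.0 times lower. In UVB against Quiescent, Pdgfa was then 17.8-fold and Pdgfb 5.12-fold higher, and Pdgfd was 2.63, Pdgfra 3.27 and Pdgfrl 6.55 times lower. With limma on log2(FPKM + 1), which understates low genes, Pdgfc was 3.26 times lower in Active than in Quiescent and 2.04-fold higher in UVB than in Active libraries, and Pdgfra 8.17-fold higher in UVB than in Active libraries.

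Per length, the order of the 7 genes differed between the groups. In UVB libraries Pdgfa stood first at 62.8 ± 18.3 FPKM (SD, n = 3 here and below), followed by Pdgfrb at 42.1 ± 14.4, Pdgfra at 30.1 ± 20.7, Pdgfrl at 17.1 ± 9.91 and Pdgfb at 12.4 ± 3.36 FPKM. Each of these neighbours overlapped the next, and only Pdgfd at 3.82 ± 0.657 FPKM and Pdgfc at 1.65 ± 0.744 FPKM stood apart at the foot. In Active libraries Pdgfa at 86.0 ± 10.5 FPKM and Pdgfb at 18.0 ± 0.999 FPKM stood above all others without overlap. Pdgfrb, Pdgfrl, Pdgfd and Pdgfra, at 2.28 to 3.56 FPKM on average, each overlapped the next, and Pdgfc was lowest at 0.271 ± 0.129 FPKM. In Quiescent libraries Pdgfrl at 191 ± 33.2 FPKM and Pdgfra at 166 ± 10.6 FPKM overlapped at the top, above Pdgfrb at 67.5 ± 18.0 FPKM. Pdgfd at 16.9 ± 2.43 FPKM came next, and Pdgfa at 5.78 ± 2.13, Pdgfb at 3.99 ± 1.16 and Pdgfc at 3.19 ± 0.871 FPKM each overlapped the next.

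Ligand RNA was mostly Pdgfa in UVB and Active libraries and mostly Pdgfd in Quiescent libraries. Pdgfa made up 75.8, 80.2 and 76.6% of the summed ligand FPKM in UVB, 79.2, 81.2 and 80.7% in Active and 24.4, 20.2 and 12.9% in Quiescent libraries. Pdgfd made up 4.91, 4.34 and 5.20% in UVB, 2.37, 2.48 and 2.57% in Active and 52.0, 52.0 and 66.0% in Quiescent libraries. Pdgfc made up 1.89, 0.977 and 4.07% in UVB, 0.406, 0.266 and 0.115% in Active and 7.32, 14.9 and 10.5% in Quiescent libraries. The shares of Pdgfc and Pdgfd were thus higher in every UVB than in every Active library, while the Pdgfa shares of UVB and Active libraries overlapped.

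**Figure D3:**
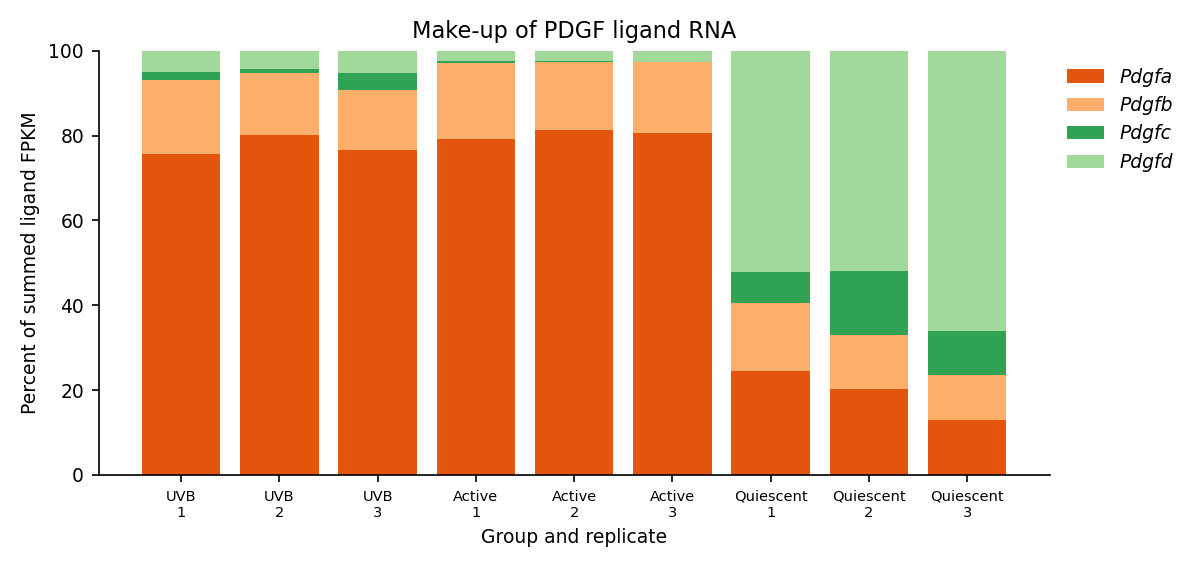
Share of each of the 4 PDGF ligand genes in the summed ligand FPKM, in percent, with 1 stacked bar per library. Pdgfa took 75.8 to 81.2% in the UVB and Active libraries, and Pdgfd took 52.0 to 66.0% in the Quiescent libraries.

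The balance of ligand and receptor RNA ran in opposite directions in Active and Quiescent libraries. Summed over the 4 ligand genes, FPKM was 78.4, 102.8 and 60.6 in UVB, 93.4, 115 and 112 in Active and 32.8, 27.6 and 29.2 in Quiescent libraries. Summed over Pdgfra and Pdgfrb, FPKM was 63.3, 42.3 and 111 in UVB, 6.10, 3.99 and 7.43 in Active and 242, 233 and 226 in Quiescent libraries. UVB libraries held 1.24, 2.43 and 0.546 times as much ligand as receptor RNA, and Active libraries 15.3, 28.9 and 15.1 times as much. Quiescent libraries held 7.37, 8.44 and 7.77 times as much receptor as ligand RNA. Sums of RNA do not measure protein, and ligand and receptor RNA in 1 library can come from different cells.

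**Figure D4:**
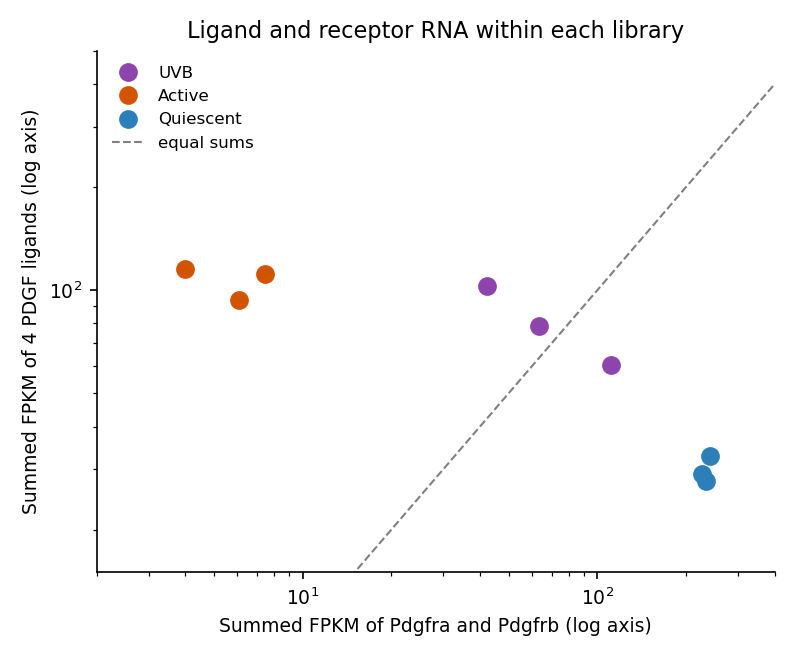
Summed FPKM of the 4 ligand genes against summed FPKM of Pdgfra and Pdgfrb, both on log axes, with 1 point per library and a dashed line where the sums are equal. The 3 UVB libraries lie near the line on both sides at 42.3 to 111 receptor FPKM, the 3 Active libraries above it at 3.99 to 7.43, and the 3 Quiescent libraries below it at 226 to 242.

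Within the library, ratios between members do not depend on the scaling between libraries. The log2 ratio of Pdgfrb to Pdgfra was 1.92 higher in Active and 2.01 higher in UVB than in Quiescent libraries, and UVB and Active differed by 0.09. The log2 ratio of Pdgfb to Pdgfa was lower by 1.74 in Active and by 1.84 in UVB than in Quiescent libraries. In each of these 4 comparisons with Quiescent the ratios did not overlap, which gives p = 0.1 in the exact two-sided permutation test, the smallest p that 3 against 3 libraries allow. The log2 ratio of Pdgfc to Pdgfa was 3.13 higher in UVB than in Active libraries, also at the smallest p of 0.1. After Benjamini-Hochberg adjustment over the 12 ratio tests these exact p-values became 0.150.

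Markers of fibroblasts and pericytes, which are known to carry PDGF receptors, differed between the groups too. Counts of markers are to be read against the shares over all genes tested. These were 29.1% higher and 29.2% lower in Active against Quiescent and 25.8% higher and 23.2% lower in UVB against Quiescent. In UVB against Active they were 14.8% higher and 9.19% lower. All 11 fibroblast markers were lower in Active and in UVB than in Quiescent libraries and higher in UVB than in Active libraries, and none was at 0 in a group. Their summed CPM was 68.8 times lower in Active and 13.5 times lower in UVB than in Quiescent libraries, and the median log2 fold change over the list was -6.76 and -3.34. Beside these sums, Pdgfra was 72.5 and 5.40 times lower, Pdgfrb 18.8 and 1.57 times lower and Pdgfrl 61.0 and 10.9 times lower in Active and in UVB than in Quiescent libraries. The 1.57-times difference of Pdgfrb between UVB and Quiescent libraries did not pass the test (adjusted p = 0.164). Col1a2, a chain of type I collagen and with Col3a1 the most abundant of these markers, ran from 4851 to 9069.9 CPM in UVB, from 677 to 816 CPM in Active and from 119401 to 146563 CPM in Quiescent libraries. Of 7 pericyte markers, 7 were lower in Active and 6 in UVB, each against Quiescent, and 6 were higher in UVB than in Active libraries. They summed to 41.1 to 99.9 CPM in UVB, 16.5 to 22.9 CPM in Active and 472 to 690 CPM in Quiescent libraries. The part of these cells in the receptor changes was not tested.

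Each receptor gene was also set against these markers within the same library. The fibroblast sum was mostly the collagen genes Col1a1, Col1a2 and Col3a1, at means of 117728, 131987 and 114133 of 398534 CPM in Quiescent libraries. Other listed markers changed by other amounts. Mfap5 averaged 94.6 CPM in UVB, 7.47 CPM in Active and 194 CPM in Quiescent libraries, and Clec3b 41.1, 7.61 and 1122 CPM. Ratios to single markers were not tested. Pdgfrl per 1000 CPM of fibroblast markers was 0.714, 0.4995 and 1.13 in UVB, 0.780, 0.726 and 0.744 in Active and 0.619, 0.685 and 0.684 in Quiescent libraries. The UVB values lay on both sides of the Active and Quiescent values, and every Active value was above every Quiescent value. The part of fibroblast content in the Pdgfrl changes was not tested. Pdgfra per 1000 CPM of fibroblast markers was 5.62, 3.51 and 10.2 in UVB, 3.79, 1.85 and 2.43 in Active and 2.61, 3.23 and 2.54 in Quiescent libraries. Active and Quiescent values overlapped, and 2 of the 3 UVB values were above both when set against this mostly collagen sum. Pdgfrb per 1000 CPM of fibroblast markers was 6.9996, 7.04 and 9.18 in UVB, 3.54, 1.90 and 4.69 in Active and 1.16, 1.10 and 0.572 in Quiescent libraries. This measure was separated between all 3 groups. Per 1000 CPM of pericyte markers, Pdgfrb was 3204, 3920 and 3257 in UVB, 771, 725 and 1606 in Active and 662, 739 and 559 in Quiescent libraries. On this scale Active and Quiescent values overlapped and UVB values were above both. Per 1000 CPM of smooth muscle markers, Pdgfrb was 1175, 897 and 1071 in UVB, 86.2, 51.8 and 111 in Active and 414, 464 and 317 in Quiescent libraries. Here all 3 groups were separated, with Active below Quiescent. The order of Active and Quiescent thus depended on the markers chosen. UVB was highest for Pdgfrb on each of these summed scales, and other choices of markers were not tested.

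**Figure D5:**
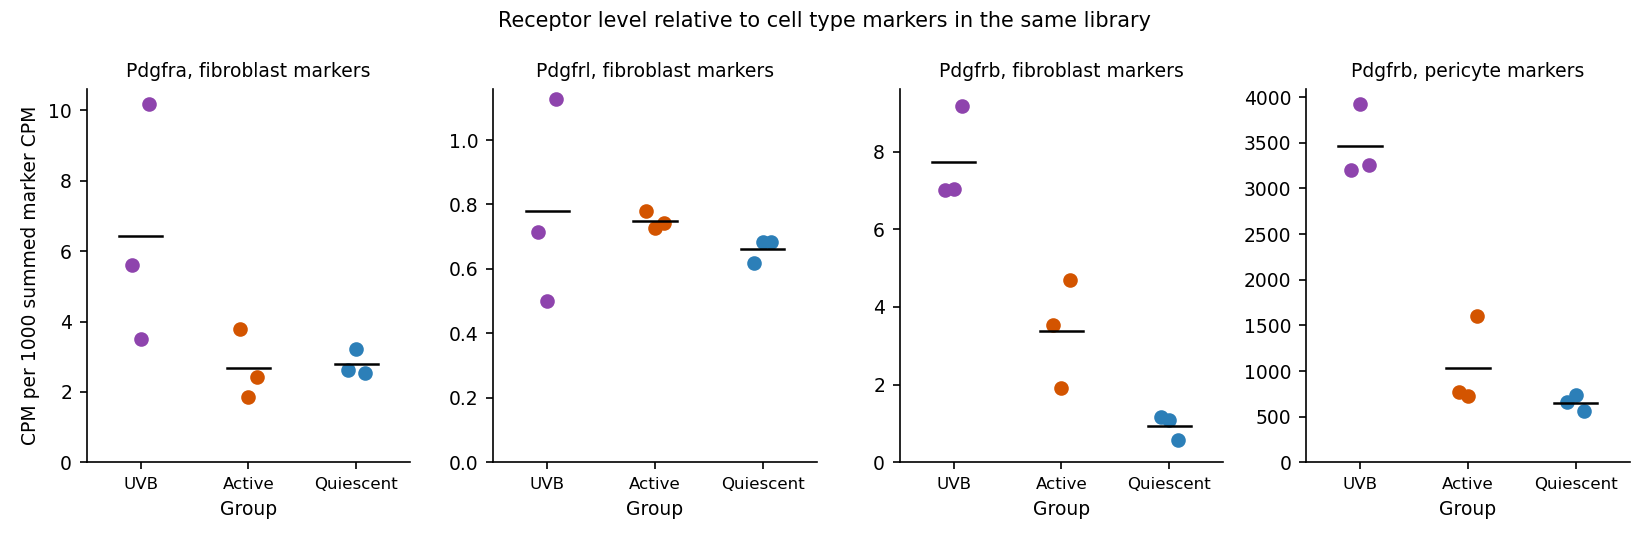
CPM of Pdgfra, Pdgfrl and Pdgfrb per 1000 summed CPM of fibroblast or pericyte markers in the same library, on linear axes from 0, with 1 point per library and a line at the group mean. The fibroblast sum was mostly the collagen genes Col1a1, Col1a2 and Col3a1. Pdgfrl per fibroblast marker ran from 0.4995 to 1.13 over all 9 libraries, whereas Pdgfrb per fibroblast marker was 6.9996 to 9.18 in UVB, 1.90 to 4.69 in Active and 0.572 to 1.16 in Quiescent libraries.

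Other cell types also differed between the groups. Over all genes tested, 58.3% were called in Active against Quiescent, 49% in UVB against Quiescent and 24% in UVB against Active. All 9 pigment cell markers were higher in Active than in Quiescent libraries, 7 were higher in UVB than in Quiescent libraries, and 8 were lower in UVB than in Active libraries. Dct, an enzyme of melanin synthesis, averaged 267 ± 127 CPM in UVB, 5567 ± 1442 CPM in Active and 17.6 ± 15.1 CPM in Quiescent libraries. In UVB against Active the median log2 fold change of the 9 pigment cell markers was -3.67, with -4.38 for Dct, and that of Pdgfa was -0.45. Of the 8 macrophage markers tested, 7 were higher in UVB than in Active libraries, 7 were lower in Active than in Quiescent libraries, and 0 passed in UVB against Quiescent. They summed to 703 to 1652 CPM in UVB, 39.3 to 106 CPM in Active and 189 to 2624 CPM in Quiescent libraries. With Quiescent replicates this far apart, the 0 calls do not show equal macrophage marker RNA in UVB and Quiescent libraries. Of 6 smooth muscle markers, 5 were lower in Active and 6 in UVB, each against Quiescent. The 8 keratinocyte markers summed to 257 to 644 CPM in UVB, 754 to 1182 CPM in Active and 114 to 1984 CPM in Quiescent libraries, so Quiescent replicates differed widely. Among 5 Schwann cell markers, Active libraries had 2 higher and 2 lower than Quiescent libraries. The 5 adipocyte markers summed to at most 117 CPM in UVB, 15.5 CPM in Active and 121 CPM in Quiescent libraries, and Lep among them was at 0 in the Active and Quiescent libraries. The part of these cell types in the PDGF results was not tested.

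The list of surface proteins that assist PDGF signalling had 3 genes. The proteoglycan gene Cspg4 (NG2), whose product binds PDGF-A, was higher in UVB and Active than in Quiescent libraries, like Pdgfa and Pdgfb. Cspg4 averaged 670 ± 278 CPM in UVB, 529 ± 47.2 CPM in Active and 17.4 ± 5.49 CPM in Quiescent libraries. It was 38.4-fold higher in UVB (5.26 ± 0.38, adjusted p = 2.1e-05) and 30.3-fold higher in Active (4.92 ± 0.37, adjusted p = 1.4e-05), each against Quiescent. Cspg4 was not on the list of 7 pericyte markers, whose sum went the other way, 8.08 times lower in UVB and 29.2 times lower in Active. Which cells held the Cspg4 RNA was not tested. Lrp1, an endocytic receptor that associates with receptor beta, was lower by 3.11 on the log2 scale in Active (adjusted p = 2.8e-05) and by 1.36 in UVB (adjusted p = 0.0027), each against Quiescent. Lrp1 was 1.76 higher in UVB than in Active libraries (adjusted p = 0.0032). Nrp1, a co-receptor, averaged 199 ± 41.3 CPM in UVB, 101 ± 15.3 CPM in Active and 199 ± 21.6 CPM in Quiescent libraries. Its fall of 0.97 in Active against Quiescent (adjusted p = 0.0015) was lost when libraries were scaled by size alone, and its value of 0.97 in UVB against Active passed (adjusted p = 0.0071).

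Of 9 genes whose products cut or bind PDGF chains, 1 was higher and 5 were lower in Active, and 0 were higher and 2 lower in UVB, each against Quiescent. In UVB against Active, 3 were higher and 0 lower. Over all genes tested, 58.3%, 49% and 24% were called in Active against Quiescent, UVB against Quiescent and UVB against Active, shares against which the counts of this and the other pathway lists are to be read. The 3 genes higher in UVB than in Active libraries were Pcsk5, Pcsk6 and Plau. The call of Pcsk6 was lost without Active replicate 1 or 2 or any UVB replicate, and that of Plau without Active replicate 1 or 2 or UVB replicate 1, so that without Active replicate 1 or 2 or UVB replicate 1 only Pcsk5 of the 3 passed. Pcsk5, a proprotein convertase, was lower by 2.76 on the log2 scale in Active than in Quiescent libraries (adjusted p = 1.8e-05) and higher by 2.29 in UVB than in Active libraries (adjusted p = 6.6e-04). Sparc, a matrix protein that binds PDGF-B, was lower by 3.29 in Active (adjusted p = 2.4e-05) and by 3.09 in UVB (adjusted p = 6.2e-05), each against Quiescent. Pcsk6, another convertase, was 18.9 times lower in Active than in Quiescent libraries (adjusted p = 5.7e-05), and 28.7 times lower without Active replicate 3. Plat, whose product activates PDGF-C and which was named after its values were seen, was the gene higher in Active than in Quiescent libraries, by 0.59 (adjusted p = 0.030), and lost the call when Quiescent replicate 2 or 3 or Active replicate 1 or 3 was left out. Plau, whose product can activate PDGF-D, was lower by 1.09 in Active than in Quiescent libraries (adjusted p = 0.026), and lost the call without Quiescent replicate 2 or Active replicate 1 or 2, and with library size alone (-0.37, adjusted p = 0.385).

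PDGF receptors belong to the class III receptor tyrosine kinases with Kit, Csf1r and Flt3, and the other members and their ligands gave 7 genes. In Active against Quiescent 1 was higher and 5 were lower, in UVB against Quiescent 1 was higher and 2 lower, and in UVB against Active 6 were higher and 1 lower. Flt3l, the ligand gene of Flt3, was 1 of these 6 (adjusted p = 0.021). It lost the call without Active replicate 1, 2 or 3 (adjusted p = 0.069, 0.077 and 0.054). Kit, the receptor that melanocytes need, went the other way from Pdgfra, although it is the next protein-coding gene on chromosome 5, with a gap of 376.7 kb and 0 protein-coding genes between. Kit averaged 19.4 ± 7.22 CPM in UVB, 124 ± 29.6 CPM in Active and 3.99 ± 2.09 CPM in Quiescent libraries. It was 30.6-fold higher in Active than in Quiescent libraries (adjusted p = 4.4e-05) and 6.38 times lower in UVB than in Active libraries (adjusted p = 0.0040). Kdr, an endothelial growth factor receptor that lies 276.1 kb beyond Kit and was chosen after its values were seen, averaged 22.0 ± 5.99 CPM in UVB, 2.39 ± 0.749 CPM in Active and 43.1 ± 6.76 CPM in Quiescent libraries. Csf1r, the macrophage growth factor receptor, lies 15.5 kb from Pdgfrb on chromosome 18. It averaged 156 ± 60.9 CPM in UVB, 8.25 ± 4.25 CPM in Active and 250 ± 242 CPM in Quiescent libraries. Csf1r was 30.2 times lower in Active than in Quiescent libraries (adjusted p = 7.0e-04), and 13.3 times lower without Quiescent replicate 2. Csf1, its ligand, was lower by 4.21 in Active (adjusted p = 1.2e-06) and by 3.26 in UVB (adjusted p = 2.7e-06), each against Quiescent.

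Proteins that bind the activated receptors or pass on their signal gave 32 genes. In Active against Quiescent 11 were higher, 9 lower and 12 did not pass, with a median log2 fold change of 0.139. In UVB against Quiescent 13 were higher, 9 lower and 10 did not pass, and in UVB against Active 4 were higher and 28 did not pass. Over all genes, 58.3% were called in Active against Quiescent, 49% in UVB against Quiescent and 24% in UVB against Active. Pik3r1, the regulatory subunit of phosphoinositide 3-kinase, was lower by 1.41 in Active than in Quiescent libraries (adjusted p = 3.7e-05). Nck2, an adaptor, was higher by 1.67 in Active (adjusted p = 4.2e-05) and by 1.65 in UVB (adjusted p = 8.4e-05), each against Quiescent. Cblb, a ubiquitin ligase that ends receptor signals, was lower by 2.41 in Active than in Quiescent libraries (adjusted p = 4.3e-05). Rasa1, a Ras GTPase-activating protein that binds receptor beta, was higher by 0.76 in UVB than in Active libraries (adjusted p = 0.0026).

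The list of 14 early response genes, which growth factors and many other stimuli switch on, had 1 gene higher and 6 lower in Active, and 1 higher and 3 lower in UVB, each against Quiescent. In UVB against Active 2 were higher, Ccl7 and Fosb, and 12 did not pass, with 24% called over all genes. Without Active replicate 2 neither passed (adjusted p = 0.051 and 0.082), and Fosb was also lost without Active replicate 1, UVB replicate 1 or UVB replicate 3. The 3 lower in UVB than in Quiescent libraries were Ccl7, Ccl2 and Ier2. Ccl2 lost the call without Quiescent replicate 2 or any UVB replicate, and Ier2 without Quiescent replicate 2 or 3 or UVB replicate 1 or 2, and neither passed with library size alone (adjusted p = 0.065 and 0.435). Egr3, a zinc finger factor, was the gene that was higher, at 12.6 to 18.3 CPM in UVB, 5.40 to 15.5 CPM in Active and 1.30 to 2.35 CPM in Quiescent libraries (adjusted p = 5.3e-04 for UVB and 8.6e-04 for Active). Ccl7, a chemokine gene, averaged 24.0 ± 8.63 CPM in UVB, 2.90 ± 0.852 CPM in Active and 216 ± 189 CPM in Quiescent libraries. It was 74.7 times lower in Active than in Quiescent libraries (adjusted p = 9.9e-05), and 37.1 times lower without Quiescent replicate 2. Fosb, a subunit of the AP-1 factor, averaged 571 ± 179 CPM in UVB, 154 ± 113 CPM in Active and 836 ± 231 CPM in Quiescent libraries. It was 5.42 times lower in Active than in Quiescent libraries (adjusted p = 0.0027), and 9.20 times lower without Active replicate 3.

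The genes most like each member were those with the highest Pearson r of log2(CPM + 0.5) over the 9 libraries, among 11354 genes. Since the libraries fall into 3 groups, r mainly follows the group means, and no p is given. For Pdgfa these were Gsr, Zfp365 and Sox6, all at 0.997, and for Pdgfb Tomm40, Hira and Ipo13, all at 0.995. Sox6, a transcription factor gene, averaged 109 CPM in UVB, 134 CPM in Active and 3.87 CPM in Quiescent libraries. For Pdgfc they were Hdgfrp3, Tpbg and Dab2, from 0.985 to 0.988, and for Pdgfd Disp1, Jazf1 and Aldh18a1, from 0.992 to 0.997. For Pdgfra they were Il13ra1 at 0.998 and Cyp2f2 and Masp1 at 0.997, and for Pdgfrb Osr1 at 0.996 and Snai1 and Cd300lg at 0.994. For Pdgfrl they were Aspn and Il1r2 at 0.999 and Galnt5 at 0.998. Aspn, a small matrix proteoglycan, averaged 68.6 CPM in UVB, 7.45 CPM in Active and 1036 CPM in Quiescent libraries.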

How the data were processed

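RNA of 9 libraries of sorted mouse skin cells was analysed, 3 per group, grouped by the labels. A directional poly(A) kit was used, per the labels' protocols. The tools cutadapt 1.8, TopHat2 2.0.13 and Cuffdiff 2.2.1 and the build mm10 are named in the submitters' processing notes; the annotation and strand setting are not given. The authors' deposited estimated counts are unscaled fragments per gene, and 1.08% of values, none of a PDGF gene, were not whole to within 1e-06. The authors' FPKM values are per kilobase and scaled between libraries by the authors. Cuffdiff marked 18 values as failed, 0 of them of a PDGF gene.

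Estimated counts were rounded and tested in R 4.3.3 with edgeR 4.0.16 (quasi-likelihood test, TMM factors of 1.163 to 1.225 in UVB and Active and 0.660 to 0.748 in Quiescent libraries, all 9 libraries in 1 fit). The edgeR filter removed 8283 genes. P-values were two-sided and adjusted by Benjamini-Hochberg over the 15078 genes left, with a threshold of 0.05; the replicate coefficient of variation was 0.28. The chi-square between replicates was 25.5 to 120 per degree of freedom, above sampling noise. The test was tried on simulated counts. Alternatives were other scaling factors, library size alone, DESeq2 1.42.0, limma 3.58.1 on log2(FPKM + 1) and log2(FPKM + 0.1), other filters, the compared groups alone, the replicate block and leaving out each library; leaving the 11 fibroblast markers out of the table was chosen after seeing the data.

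The members, the 5 pathway lists and the 9 marker lists were chosen with earlier results of these data known. Named from each pathway list were up to 4 genes with the smallest adjusted p past the threshold in a comparison, and from each marker list up to 2 of the most abundant; the text names part of them. The macrophage marker Adgre1 was not analysed here, and 1 gene of a pathway list is not reported here.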

Additional observations from a re-analysis of the deposited data

How the results depend on the processing

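Over the alternatives run, the members past the threshold numbered 2 higher and 5 lower in Active against Quiescent, 2 higher and 3 or 4 lower in UVB against Quiescent, and 4 or 5 higher and 0 lower in UVB against Active. With library size alone, 8651 genes were higher and 2206 lower in Active against Quiescent, and 8746 higher and 1246 lower in UVB against Quiescent, while Pdgfrb in UVB against Quiescent turned to 0.06, Nrp1 in the same comparison to 0.72 and Rasa1 in Active against Quiescent to 0.53 on the log2 scale. With limma on log2(FPKM + 1), Pdgfc passed in UVB against Quiescent at -0.68, and with DESeq2, Pdgfd passed in UVB against Active at 0.54. The cause was not tested. Leaving out 1 library at a time, Pdgfc in UVB against Quiescent ran from -1.35 to -0.65. In UVB against Active, all-gene calls ran from 999 to 2548 higher and from 453 to 1678 lower, and the log2 ratio of Pdgfrb to Pdgfra ran from -0.21 to 0.42. That ratio was reversed, at -0.21, -0.10 and -0.04, without UVB replicate 2, Active replicate 1 and Active replicate 2.

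Same-numbered libraries deviated together with r of 0.08 to 0.22 between Active and Quiescent. The r was -0.17 to 0.22 between UVB and Quiescent and -0.12 to 0.05 between UVB and Active. Differently numbered libraries were not set beside these values, so they cannot show whether replicate numbers pair the libraries. With the replicate block the members' counts were 2 higher and 5 lower, 2 higher and 3 lower, and 4 higher and 0 lower, and all-gene calls were 4135 and 4088, 3580 and 3229, and 1826 and 1004, in Active against Quiescent, UVB against Quiescent and UVB against Active. The block ended the calls of Plau in Active against Quiescent (adjusted p = 0.061) and Ccl2 in UVB against Quiescent (0.103). It also ended those of Pcsk6 (0.064) and Flt3l (0.050) in UVB against Active. Depth limited Pdgfc most, at about 1 CPM in Active libraries.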
